A study of Mus musculus with 9 samples.

Results

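The genes of glutathione, thioredoxin and peroxide metabolism were followed in mouse striatum after 2 regimens of the dopaminergic neurotoxin MPTP. The set held every probe set with exactly 1 gene symbol whose symbol named a glutathione S-transferase, glutathione peroxidase, peroxiredoxin, superoxide dismutase or thioredoxin-family gene, or was Gclc, Gclm, Gsr, Cat, Nqo1, Hmox1, Hmox2 or Srxn1. With 1 probe set per gene, the one of highest mean over the 9 arrays, it came to 61 of the 19935 genes that had such a probe set. Members were chosen by symbol, not by their values. Of the 61, 56 passed the filter on low values and were tested. The other 5 lay below it in the mean of the 9 arrays: Txndc2 at log2 5.89, Gsta3 at 5.85, Gstt4 at 5.45, Txndc8 at 5.43 and Gpx5 at 4.80.

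Mice given chronic MPTP received 4 mg/kg once daily on 20 days and their striatum was taken 8 weeks after the treatment. Acute MPTP consisted of 4 intraperitoneal injections of 20 mg/kg at intervals of 2 h, with striatum taken at 1 week. Control mice had 4 saline injections on the acute schedule and the same 1 week wait. Both MPTP groups received 80 mg/kg in total, and each group had 3 arrays. The chronic group thus had both another schedule and a longer wait than the others, which cannot be told apart, and the labels used here give no strain, age or sex and do not link an array to one animal. All p-values therefore measure the spread between these samples, which may be technical.

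MPTP is turned into a toxic ion that dopamine neurons take up and that blocks mitochondrial respiration, from which superoxide arises. Superoxide dismutases convert superoxide to hydrogen peroxide, and catalase, glutathione peroxidases and peroxiredoxins remove the peroxide. Glutathione and thioredoxin supply the electrons for the peroxidases and are themselves restored by glutathione reductase and thioredoxin reductases with NADPH. Glutathione S-transferases join glutathione to reactive compounds. The transcription factor NRF2 switches on many of these genes through antioxidant response elements in their promoters.

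The arrays were not alike in tissue content. Genes of striatal projection neurons were strongly detected on every array (Penk between log2 13.16 and 13.56, and Ppp1r1b, which encodes DARPP-32, between 11.44 and 12.31), so the striatal label fits its markers. Marker lists of neighbouring tissue nevertheless ran over more than 2 log2 units. The mean of 9 cortex genes of 10 listed, each centred on its own average, lay at -0.42, -0.53 and -0.82 on chronic arrays, 0.84, 1.11 and -0.59 on acute arrays and 1.29, -0.50 and -0.37 on control arrays. The mean of all 8 thalamus and septum genes lay at -0.86, -0.01 and 0.13 on chronic arrays, -0.99, -0.54 and 1.01 on acute arrays and -0.47, -0.03 and 1.76 on control arrays. For choroid plexus (7 of 8 genes on the array) the same mean was highest on acute 3, at 1.54, and control 3, at 0.95, and lay between -0.75 and 0.14 elsewhere. Control 1, acute 1 and acute 2 are called cortex-rich below. The astrocyte, oligodendrocyte, microglia and vessel lists stayed between -0.31 and 0.28 on all arrays. The 4 genes of dopamine neurons (Th, Slc6a3, Slc18a2 and Ddc), whose cell bodies lie outside the striatum, averaged -0.20, 0.25 and -0.09 on chronic arrays, -0.39, -0.08 and 0.11 on acute arrays and -0.25, 0.20 and 0.45 on control arrays. In bulk tissue, fewer cells of a type and less RNA per cell cannot be told apart.

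The promoter windows of RefSeq (build GRCm38.p6, from 250 bases before to 50 bases after each start) were searched for the core of the antioxidant response element. TGACNNNGC was sought on both strands, and sequence outside these windows was not searched. Of 61 members, 52 had a promoter in that table, and 11 of the 52 (21.2%) held at least 1 match, against 3781 of 27025 genes of the table (14.0%). Counted by promoter, 11 of 71 windows of the members (15.5%) and 4071 of 32851 of the whole table (12.4%) held one. The genes with a match were Gclm, Gsta3, Gstm5, Gstm7, Prdx1, Sod1, Srxn1, Txndc11, Txndc2, Txndc5 and Txnrd1. A match describes the letters of the window and is not by itself a binding site. A window without a match does not show that the gene lacks an element elsewhere. The 250 bases before a listed start are shown for 3 members of the glutathione, peroxiredoxin and thioredoxin arms, with their match in capitals. They are also shown for Gpx6, the member with the largest difference between groups, whose window holds none. All 4 genes lie on the plus strand, with these bases at chr3:122245307-122245556 for Gclm, chr4:116685349-116685598 for Prdx1, chr10:82858956-82859205 for Txnrd1 and chr13:21311953-21312202 for Gpx6. The Gpx6 window, the only one listed for it, lies inside the annotated span of the gene (chr13:21295465-21319625) and not at its first base. The matches of Gclm, Prdx1 and Txnrd1 are on the opposite strand, and begin 134, 133 and 92 bases before the start, in the last case in 1 of 3 promoters listed for Txnrd1.
Gclm: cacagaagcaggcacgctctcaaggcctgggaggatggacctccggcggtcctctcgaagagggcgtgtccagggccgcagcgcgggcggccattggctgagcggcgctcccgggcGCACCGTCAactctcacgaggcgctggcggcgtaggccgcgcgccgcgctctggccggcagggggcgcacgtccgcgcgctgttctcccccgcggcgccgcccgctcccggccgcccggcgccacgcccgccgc
Prdx1: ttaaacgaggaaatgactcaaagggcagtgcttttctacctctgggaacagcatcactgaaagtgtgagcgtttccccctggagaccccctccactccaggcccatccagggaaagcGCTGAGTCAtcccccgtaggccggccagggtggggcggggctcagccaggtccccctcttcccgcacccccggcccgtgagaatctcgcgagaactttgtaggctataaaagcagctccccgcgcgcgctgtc
Txnrd1: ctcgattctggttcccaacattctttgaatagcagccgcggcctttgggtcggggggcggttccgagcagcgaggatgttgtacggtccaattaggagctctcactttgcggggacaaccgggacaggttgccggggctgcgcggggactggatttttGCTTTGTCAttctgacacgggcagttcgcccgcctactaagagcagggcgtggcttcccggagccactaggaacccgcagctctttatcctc
Gpx6: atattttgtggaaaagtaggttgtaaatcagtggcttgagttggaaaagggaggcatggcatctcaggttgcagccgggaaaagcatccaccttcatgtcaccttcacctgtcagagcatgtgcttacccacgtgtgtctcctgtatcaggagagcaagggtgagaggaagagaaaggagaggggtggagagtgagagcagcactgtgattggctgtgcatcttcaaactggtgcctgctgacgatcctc

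No member passed the test in any comparison. The quantity tested was the difference in log2 intensity in limma, with Benjamini-Hochberg adjustment over all 16335 tested probe sets. The smallest adjusted p of a member was 0.876 for chronic MPTP against control, 1 for acute MPTP against control and 0.877 for chronic against acute MPTP. Over all tested probe sets the test called 0% for chronic MPTP against control, 0% for acute MPTP against control and 0.0122% for chronic against acute MPTP. Differences below are therefore given as values, with unadjusted p as a description. The 95% interval of the difference stayed within 1.5-fold in either direction for 47 of 56 members in chronic MPTP against control, for 44 in acute MPTP against control and for 44 in chronic against acute MPTP. The number of arrays limits the precision. The interval reached 2-fold for Gpx6 and Gpx3 in chronic MPTP against control, for Gpx3, Gstm6 and Gstm7 in acute MPTP against control and for Gpx6, Gpx3 and Gstm6 in chronic against acute MPTP. Gpx3 had the widest interval in each.

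The members as a group stood close to the array as a whole. Their median log2 difference was -0.03 for chronic MPTP against control, with 23 members higher and 33 lower, beside -0.01 for all tested probe sets. For acute MPTP against control it was -0.01, with 25 higher and 31 lower, beside 0.00 for all. For chronic against acute MPTP it was 0.02, with 30 higher and 26 lower, beside -0.01 for all. Spread within groups was also near that of the array as a whole. The median pooled SD was 0.167 log2 units for the members and 0.157 for all tested probe sets, with 30 of 56 members above 0.157.

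**Figure D1:**
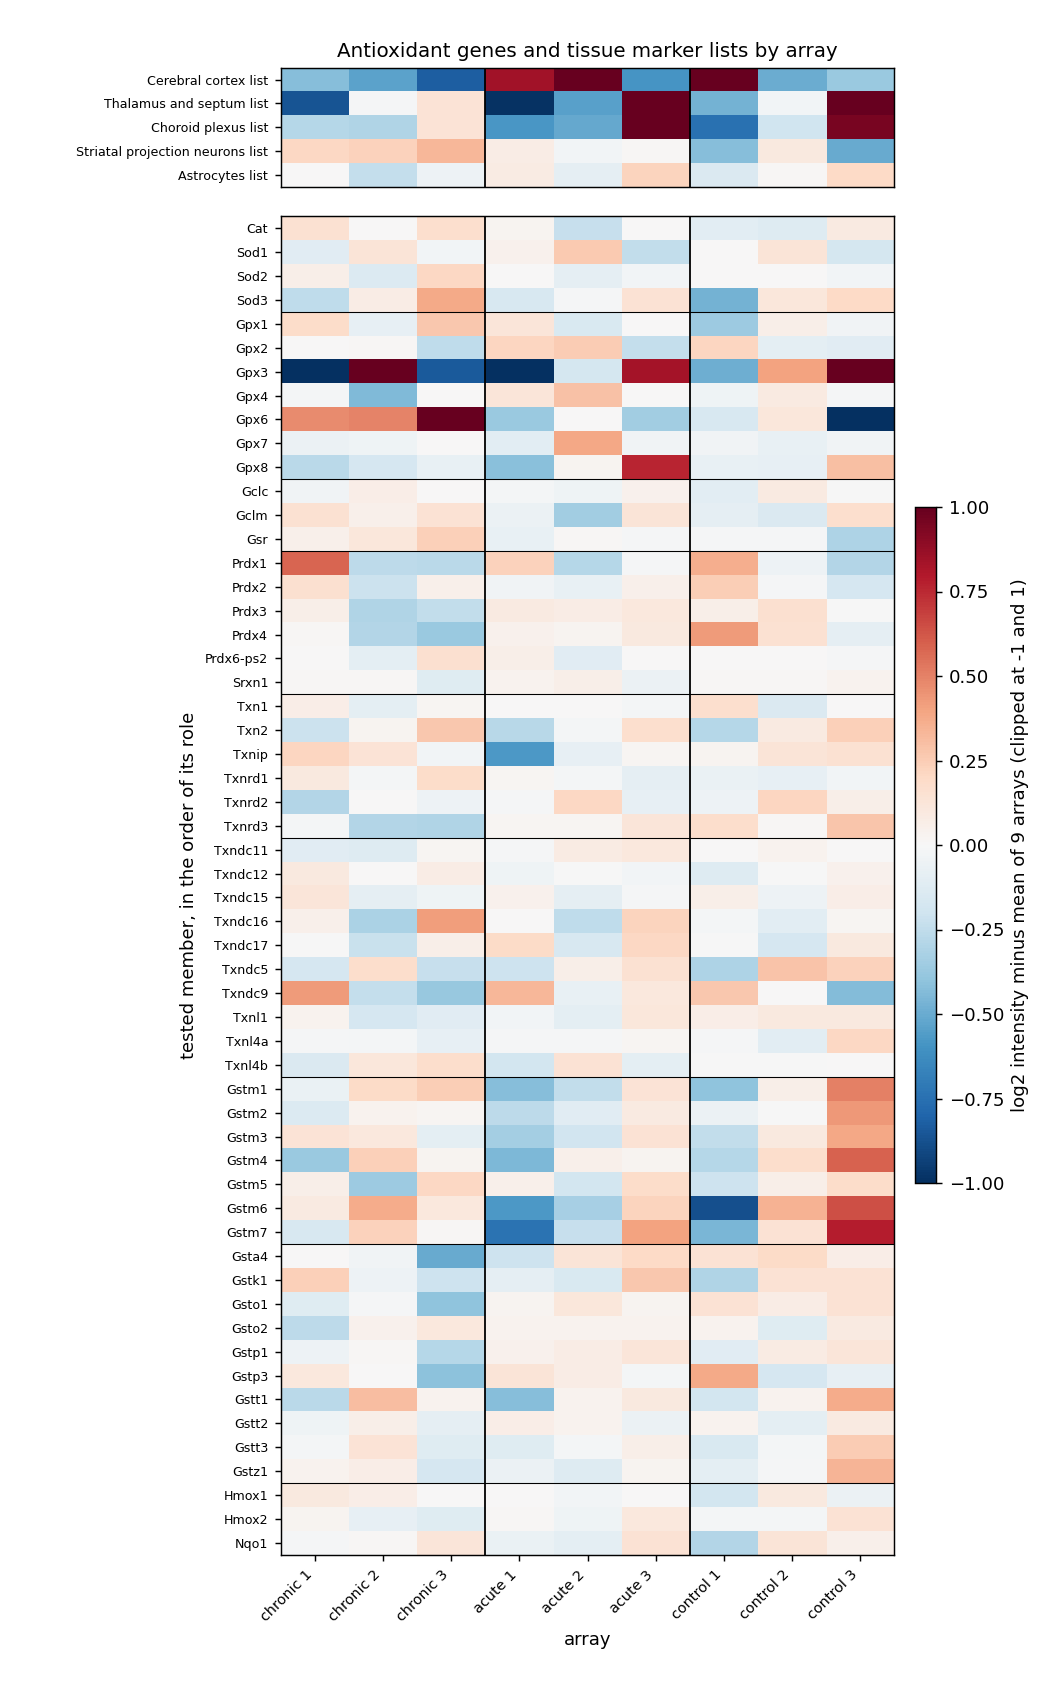
Log2 intensity of the 56 tested members on each of the 9 arrays, minus the member's mean over the 9 arrays and clipped at -1 and 1, with 5 tissue marker lists in the upper block. Columns are chronic, acute and control arrays, and rows are ordered by role. Most rows are pale, and Gpx3, Gpx6 and several mu class transferases are among the darkest.

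Group means of the superoxide dismutases lay close together. Sod1, the cytosolic copper-zinc enzyme, averaged 11.75 ± 0.12 on chronic arrays, 11.77 ± 0.25 on acute arrays and 11.74 ± 0.15 on control arrays (SD, n = 3 each). Sod2, the manganese enzyme of mitochondria, averaged 11.68 ± 0.17 on chronic arrays, 11.60 ± 0.05 on acute arrays and 11.63 ± 0.02 on control arrays. Sod3, the secreted form, varied more within groups, from 7.09 to 7.72 on chronic arrays, 7.18 to 7.49 on acute arrays and 6.87 to 7.54 on control arrays. Differences among these 3 genes did not exceed 0.12 log2 units in any comparison. Catalase, the peroxisomal peroxide-splitting enzyme, lay at 10.41, 10.26 and 10.43 on chronic arrays, at 10.28, 10.03 and 10.26 on acute arrays and at 10.15, 10.13 and 10.34 on control arrays. Its chronic values overlapped those of both other groups, and it was 0.17 ± 0.10 higher in chronic than in acute MPTP (standard error, unadjusted p = 0.128, adjusted p = 0.877 in limma), and 0.093 higher without acute 2.

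Gpx6 had the largest difference of the set. It encodes a glutathione peroxidase known from olfactory epithelium. Its log2 intensity was 8.96, 8.98 and 9.50 on chronic arrays, 8.12, 8.49 and 8.14 on acute arrays and 8.33, 8.60 and 7.27 on control arrays. All 3 chronic arrays lay above all 6 others, and control 3 lay far below the other controls. The chronic mean was 1.08 ± 0.31 log2 units above the control mean, a 2.11-fold difference with a 95% interval of 0.38 to 1.78, and this was the highest of all 16335 differences in that comparison. With an unadjusted p of 0.007 the adjusted p was 0.876 in limma. Against acute MPTP, chronic MPTP was 0.90 ± 0.31 higher (unadjusted p = 0.018, adjusted p = 0.877 in limma). Acute MPTP was 0.18 above control, and those groups overlapped.

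The chronic arrays, highest in Gpx6, also differed in tissue content. The striatal projection neuron list (9 of 12 genes on the array) averaged 0.21, 0.23 and 0.34 on chronic arrays, 0.07, -0.02 and 0.01 on acute arrays and -0.42, 0.10 and -0.50 on control arrays, so it too was highest on the chronic arrays. Control 3, lowest in Gpx6, was highest in the thalamus and septum list. The other arrays followed the striatal list only in part. Control 1, at -0.42 in that list, had Gpx6 at 8.33, above acute 1 (8.12) and acute 3 (8.14). Without control 3 the chronic to control difference was 0.68. The per-array means of the cortex list and of the thalamus and choroid plexus lists were used as covariates. With them the chronic to control difference was 0.63 (unadjusted p = 0.165), and that of chronic against acute MPTP was 0.47 (unadjusted p = 0.316). The striatal list was not a covariate, and its part in the Gpx6 values was not tested.

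Of the other glutathione peroxidases, none had an unadjusted p under 0.05 in any comparison. Gpx1, the abundant cytosolic selenoenzyme, averaged 10.55 ± 0.18 on chronic arrays, 10.42 ± 0.14 on acute arrays and 10.32 ± 0.22 on control arrays (SD, n = 3 each). Its chronic to control difference of 0.24 ± 0.14 (unadjusted p = 0.123) was 0.11 without control 1 and turned to -0.02 with the tissue covariates. Gpx4, which reduces lipid hydroperoxides in membranes, lay at 10.02, 9.60 and 10.04 on chronic arrays, 10.16, 10.33 and 10.04 on acute arrays and 9.99, 10.13 and 10.03 on control arrays. Chronic values of Gpx4 were all below the acute values, chronic 3 and acute 3 only narrowly, by 0.29 ± 0.13 in the mean (unadjusted p = 0.056, adjusted p = 0.877 in limma), and chronic 2 was the lowest array. Without chronic 2 this difference was -0.15. Acute MPTP was 0.12 ± 0.13 above control for Gpx4, a difference that turned to -0.04 without the 3 cortex-rich arrays. Gpx7 and Gpx8 encode peroxidases of the endoplasmic reticulum. For Gpx7, acute 2 stood at 6.52 and the remaining 8 arrays between 6.03 and 6.13, so that the acute to control difference of 0.13 ± 0.12 became -0.02 without acute 2. Gpx8 ranged from 7.26 to 8.44, with the highest value on acute 3. Gpx2, best known from the gut, lay between 5.85 and 6.35 on all arrays.

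Gpx3, the secreted plasma form, was the least stable member. It lay at 7.07, 9.46 and 7.54 on chronic arrays, 7.08, 8.20 and 9.21 on acute arrays and 7.89, 8.78 and 10.16 on control arrays. The highest array exceeded the lowest 8.52-fold, and the pooled SD of 1.16 log2 units was larger than that of 99.9% of the tested probe sets. The group means differed by -0.92 ± 0.77 for chronic MPTP against control and by -0.78 ± 0.77 for acute MPTP against control, both within the spread between replicates (unadjusted p = 0.262 and 0.338). With the tissue covariates these differences were -0.37 and -0.55. Control 3 and acute 3, the arrays highest in the thalamus and choroid plexus lists, were the highest Gpx3 arrays of their groups, while chronic 2 was high in Gpx3 with both lists near or below average. The ependyma list (all 4 genes on the array) lay at -0.14, 0.31 and -0.26 on chronic arrays, at -0.44, 0.13 and 0.23 on acute arrays and between -0.02 and 0.19 on control arrays, and within each group it was highest on the array highest in Gpx3. Its part in the Gpx3 values was not tested.

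**Figure D2:**
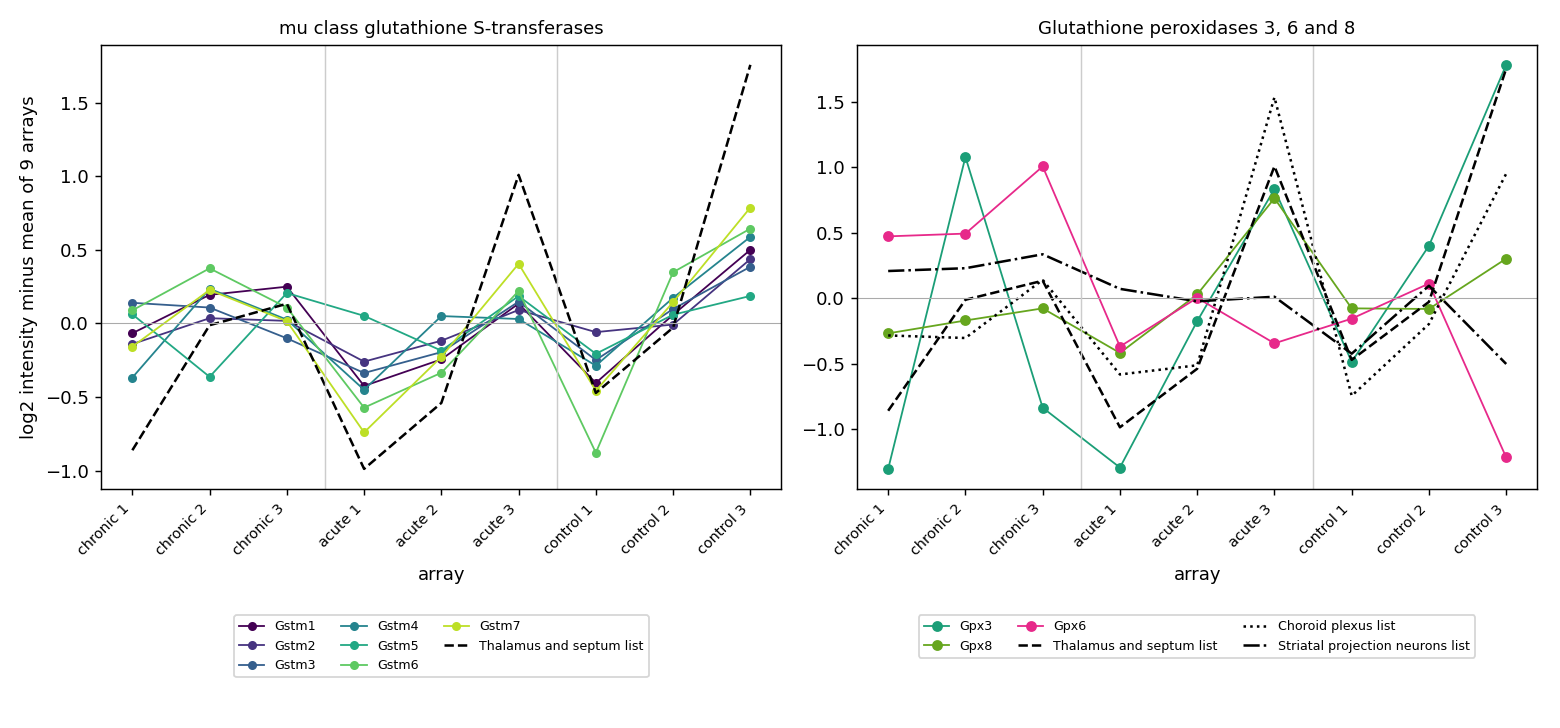
Log2 intensity minus the mean of 9 arrays for the mu class glutathione S-transferases with the thalamus and septum list (left), and for Gpx3, Gpx6 and Gpx8 with 3 tissue lists (right). Arrays run from chronic to acute to control, and lines only join the points of a gene. Control 3 is highest for 6 of 7 mu class genes and lowest for Gpx6.

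Gsr, glutathione reductase, was higher on every chronic array than on any other array, while the chronic values of the synthesis genes overlapped the rest. Gclc, the catalytic subunit of glutamate-cysteine ligase, averaged 10.09 ± 0.05 on chronic arrays, 10.07 ± 0.04 on acute arrays and 10.07 ± 0.10 on control arrays (SD, n = 3 each). Gclm, the modifier subunit of that ligase, lay at 10.25, 10.14 and 10.24 on chronic arrays, 10.03, 9.74 and 10.22 on acute arrays and 10.01, 9.95 and 10.26 on control arrays. The groups overlapped, and Gclm was 0.21 ± 0.13 higher in chronic than in acute MPTP (unadjusted p = 0.147), a difference that was 0.083 without acute 2 and turned to -0.01 without the 3 cortex-rich arrays. Gsr, whose enzyme returns oxidised glutathione to its reduced form, lay at 9.22, 9.28 and 9.41 on chronic arrays, 9.09, 9.18 and 9.15 on acute arrays and 9.16, 9.15 and 8.86 on control arrays. The chronic to control difference of Gsr was 0.25 ± 0.10 (unadjusted p = 0.040, adjusted p = 0.899 in limma) and was 0.15 without control 3. Acute MPTP was 0.09 ± 0.10 above control, and the difference turned to -0.01 without control 3.

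Among the peroxiredoxins, Prdx3 and Prdx4 had lower chronic means, and the cytosolic Prdx1 and Prdx2 had nearly equal group means on the probe sets chosen. A second probe set gave -0.21 for Prdx2 in chronic MPTP against control (unadjusted p = 0.020) and -0.24 for Prdx1 in acute MPTP against control (unadjusted p = 0.284). Which probe set better measures each gene was not tested, so the near equality holds for the chosen ones only. Prdx2 averaged 11.77 ± 0.19 on chronic arrays, 11.75 ± 0.06 on acute arrays and 11.79 ± 0.21 on control arrays (SD, n = 3 each). Prdx1 ranged from 10.23 to 11.10, with replicate 1 the highest array in each group, and its group means differed by at most 0.04. Prdx3, the mitochondrial peroxiredoxin, lay at 9.27, 8.91 and 8.96 on chronic arrays, 9.30, 9.29 and 9.31 on acute arrays and 9.27, 9.37 and 9.20 on control arrays. Its chronic values were all below the acute ones (-0.25 ± 0.11, unadjusted p = 0.040, adjusted p = 0.877 in limma) and overlapped the controls (-0.23 ± 0.11, unadjusted p = 0.055). With the tissue covariates these Prdx3 differences were larger, at -0.39 and -0.37, but neither had an unadjusted p under 0.05 in that fit. Prdx4, the form of the endoplasmic reticulum, lay at 7.14, 6.83 and 6.75 on chronic arrays, 7.16, 7.15 and 7.22 on acute arrays and 7.55, 7.28 and 7.03 on control arrays. The chronic mean of Prdx4 was -0.38 ± 0.14 relative to control (unadjusted p = 0.026, adjusted p = 0.898 in limma) with overlapping groups, and -0.25 without control 1. Srxn1, which repairs over-oxidised peroxiredoxins and is a known NRF2 target, ranged only from 9.04 to 9.21. The Prdx6-ps2 probe set, annotated as a pseudogene, ranged from 7.12 to 7.40.

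**Figure D3:**
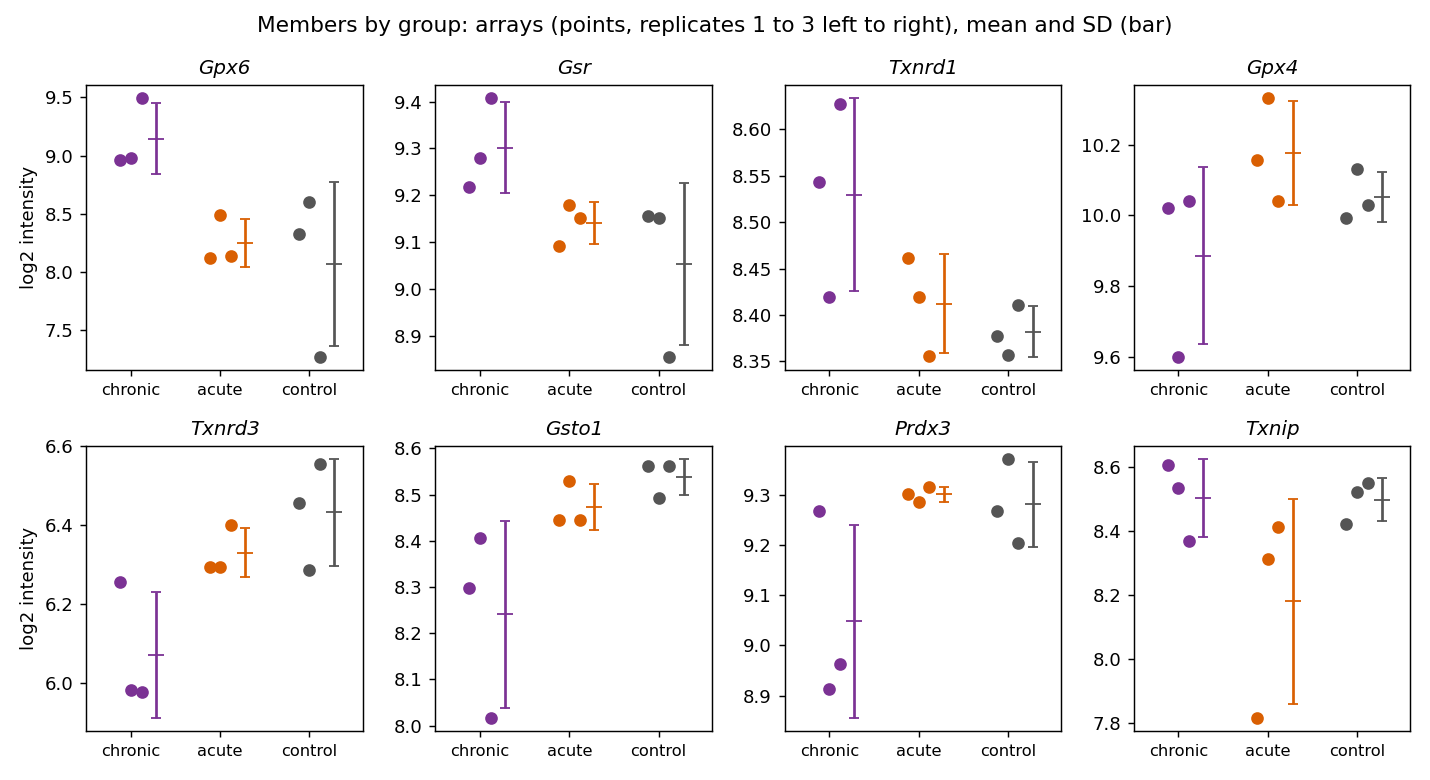
Log2 intensity of 8 members on each array (points, replicates 1 to 3 from left to right), with the mean and SD of each group of 3 (bar), for chronic, acute and control arrays. Each panel has its own axis, which does not start at 0. Gpx6 and Gsr are highest on the 3 chronic arrays, and Gsto1 and Txnrd3 lowest.

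In the thioredoxin system group means of the thioredoxins nearly coincided, and chronic values lay above control for Txnrd1 and below it for Txnrd3. Txn1, the cytosolic thioredoxin, averaged 12.81 ± 0.08 on chronic arrays, 12.81 ± 0.01 on acute arrays and 12.82 ± 0.15 on control arrays (SD, n = 3 each). The mitochondrial Txn2 averaged 10.79 ± 0.24 on chronic arrays, 10.72 ± 0.22 on acute arrays and 10.78 ± 0.27 on control arrays. Txnrd1, the cytosolic reductase, lay at 8.54, 8.42 and 8.63 on chronic arrays, 8.46, 8.42 and 8.36 on acute arrays and 8.38, 8.36 and 8.41 on control arrays. Every chronic value lay above every control value, by 0.15 ± 0.08 in the mean (unadjusted p = 0.107, adjusted p = 0.942 in limma). Txnrd3, a reductase best known from testis, lay at 6.25, 5.98 and 5.98 on chronic arrays, 6.29, 6.29 and 6.40 on acute arrays and 6.45, 6.29 and 6.55 on control arrays. Chronic values lay below all others, by -0.36 ± 0.11 against control (unadjusted p = 0.008, adjusted p = 0.876 in limma) and -0.26 ± 0.11 against acute MPTP (unadjusted p = 0.040), the second being -0.14 with the tissue covariates. These Txnrd3 intensities were near the filter of log2 5.89. The mitochondrial reductase Txnrd2 averaged 6.85 ± 0.16 on chronic arrays, 7.01 ± 0.15 on acute arrays and 7.04 ± 0.13 on control arrays.

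Txnip, which binds and inhibits thioredoxin and responds to glucose, was the one member whose acute and control values did not overlap. It lay at 7.82, 8.31 and 8.41 on acute arrays and 8.42, 8.52 and 8.55 on control arrays, with 8.61, 8.53 and 8.37 on chronic arrays. The lowest value was that of acute 1. The acute to control difference was -0.32 ± 0.15 (unadjusted p = 0.063, adjusted p = 1 in limma), and -0.13 without acute 1. Chronic MPTP was 0.32 ± 0.15 above acute MPTP (unadjusted p = 0.059) and 0.14 without acute 1.

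The 10 tested thioredoxin-domain genes include folding enzymes of the endoplasmic reticulum such as Txndc5, cytosolic proteins and the spliceosome proteins Txnl4a and Txnl4b. Their log2 differences lay between -0.17 and 0.09 for chronic MPTP against control and between -0.09 and 0.17 for acute MPTP against control, and none had an unadjusted p under 0.05. Txnl1, a proteasome-associated thioredoxin-like protein, averaged 8.47 ± 0.10 on chronic arrays, 8.55 ± 0.10 on acute arrays and 8.64 ± 0.02 on control arrays, with all chronic values below all control values. Txndc12 of the endoplasmic reticulum averaged 8.86 ± 0.05 on chronic arrays, 8.78 ± 0.02 on acute arrays and 8.77 ± 0.09 on control arrays. Txndc17, a small cytosolic oxidoreductase, was 0.11 ± 0.13 higher in acute MPTP than in control (unadjusted p = 0.433), a difference that was 0.035 without control 2 and 0.23 without acute 2. On the probe set chosen, Txndc9 varied most, from 9.19 to 10.05, and like Prdx1 was highest on replicate 1 of each group. A second Txndc9 probe set gave 0.12 for chronic against acute MPTP, beside -0.18 on the chosen one.

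The mu class glutathione S-transferases, 7 neighbouring genes of chromosome 3, varied together from array to array. Probes for near-identical copies may share signal, so they are not independent of each other. Control 3 was the highest array for 6 of the 7, and acute 1 the lowest for 5. Averaged over the 7 after centring, they lay at -0.06, 0.12 and 0.07 on chronic arrays, -0.39, -0.18 and 0.17 on acute arrays and -0.36, 0.13 and 0.50 on control arrays. The groups overlapped, and within acute and control arrays the order of the 3 arrays was that of the thalamus and septum list. On chronic arrays the order differed, with chronic 2 highest in the mu class and chronic 3 highest in the list.

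Gstm1 lay at 11.10, 11.36 and 11.41 on chronic arrays, 10.74, 10.92 and 11.30 on acute arrays and 10.76, 11.22 and 11.67 on control arrays. Gstm7 lay at 9.52, 9.91 and 9.70 on chronic arrays, 8.94, 9.45 and 10.09 on acute arrays and 9.22, 9.83 and 10.47 on control arrays. For both genes the acute and control ranges overlapped, while in each of the 3 same-numbered pairs the acute array was the lower. Of the 7 genes, 6 had lower acute than control means, the largest differences being -0.35 ± 0.34 for Gstm7 and -0.28 ± 0.24 for Gstm4. Gstm3 (-0.21 ± 0.18) and Gstm2 (-0.22 ± 0.15) were alike, and none of these had an unadjusted p under 0.05 in the reported fit. A second Gstm3 probe set gave only -0.03 for the same comparison (unadjusted p = 0.725 in limma). Among same-numbered arrays the acute array was below the control array in all 3 pairs for 5 of the 7 genes, Gstm5 and Gstm6 being the exceptions. How often this held over all tested probe sets was not computed. The 7 genes vary together, so the count has no background and is a description only. With the replicate block the unadjusted p was 0.044 for Gstm4 and 0.049 for Gstm2 (adjusted p = 0.980 in limma for both). Leaving out 1 array moved the Gstm4 difference between -0.50 (without control 1) and -0.07 (without control 3) and the Gstm3 difference between -0.37 and -0.05 without the same arrays. The Gstm2 difference ran from -0.31 (without acute 3) to -0.06 (without control 3). With the tissue covariates the Gstm7 difference was -0.20. Gstm6 had a pooled SD of 0.53, with 6.86 on control 1 and 8.38 on control 3.

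The 10 tested transferases of other classes had lower chronic than control means in 9 cases, with a median of -0.07. Over all tested probe sets, 8702 of 16335 were lower, with a median of -0.01. Some of the 10 are neighbouring genes, so the count is a description only. Gsto1, an omega class enzyme, lay at 8.30, 8.41 and 8.02 on chronic arrays, 8.44, 8.53 and 8.44 on acute arrays and 8.56, 8.49 and 8.56 on control arrays. Its chronic values lay below all others. The difference was -0.30 ± 0.11 against control (unadjusted p = 0.020, adjusted p = 0.876 in limma) and -0.23 ± 0.11 against acute MPTP (unadjusted p = 0.056). Chronic 3 was the lowest array, and without it the 2 differences were -0.19 and -0.12. Gsta4, which clears the lipid aldehyde 4-hydroxynonenal, averaged 8.39 ± 0.28 on chronic arrays, 8.61 ± 0.22 on acute arrays and 8.71 ± 0.06 on control arrays. All its chronic values lay below all control values (unadjusted p = 0.071), and again chronic 3 was lowest. Gstp1, the pi class enzyme, averaged 11.30 ± 0.15 on chronic arrays, 11.49 ± 0.04 on acute arrays and 11.44 ± 0.13 on control arrays. Chronic values of Gstp1 lay below all acute ones, only narrowly for chronic 2 (11.42) and acute 1 (11.45). On the probe sets annotated to both Gstp1 and Gstp2, chronic and acute values overlapped.

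The inducible NRF2 targets Nqo1 and Hmox1 overlapped in all 3 groups. Nqo1, a quinone reductase, lay at 6.85, 6.87 and 6.98 on chronic arrays, between 6.76 and 7.003 on acute arrays and at 6.57, 6.99 and 6.91 on control arrays. Hmox1, the inducible haem oxygenase, lay between 6.95 and 7.04 on chronic arrays, 6.91 and 6.95 on acute arrays and 6.75 and 7.04 on control arrays. Hmox2, the constitutive one, averaged 10.10 ± 0.08 on chronic arrays, 10.18 ± 0.07 on acute arrays and 10.19 ± 0.10 on control arrays. The differences of these 3 genes lay between -0.09 and 0.11 log2 units for chronic MPTP against control and between -0.01 and 0.04 for acute MPTP against control.

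**Figure D4:**
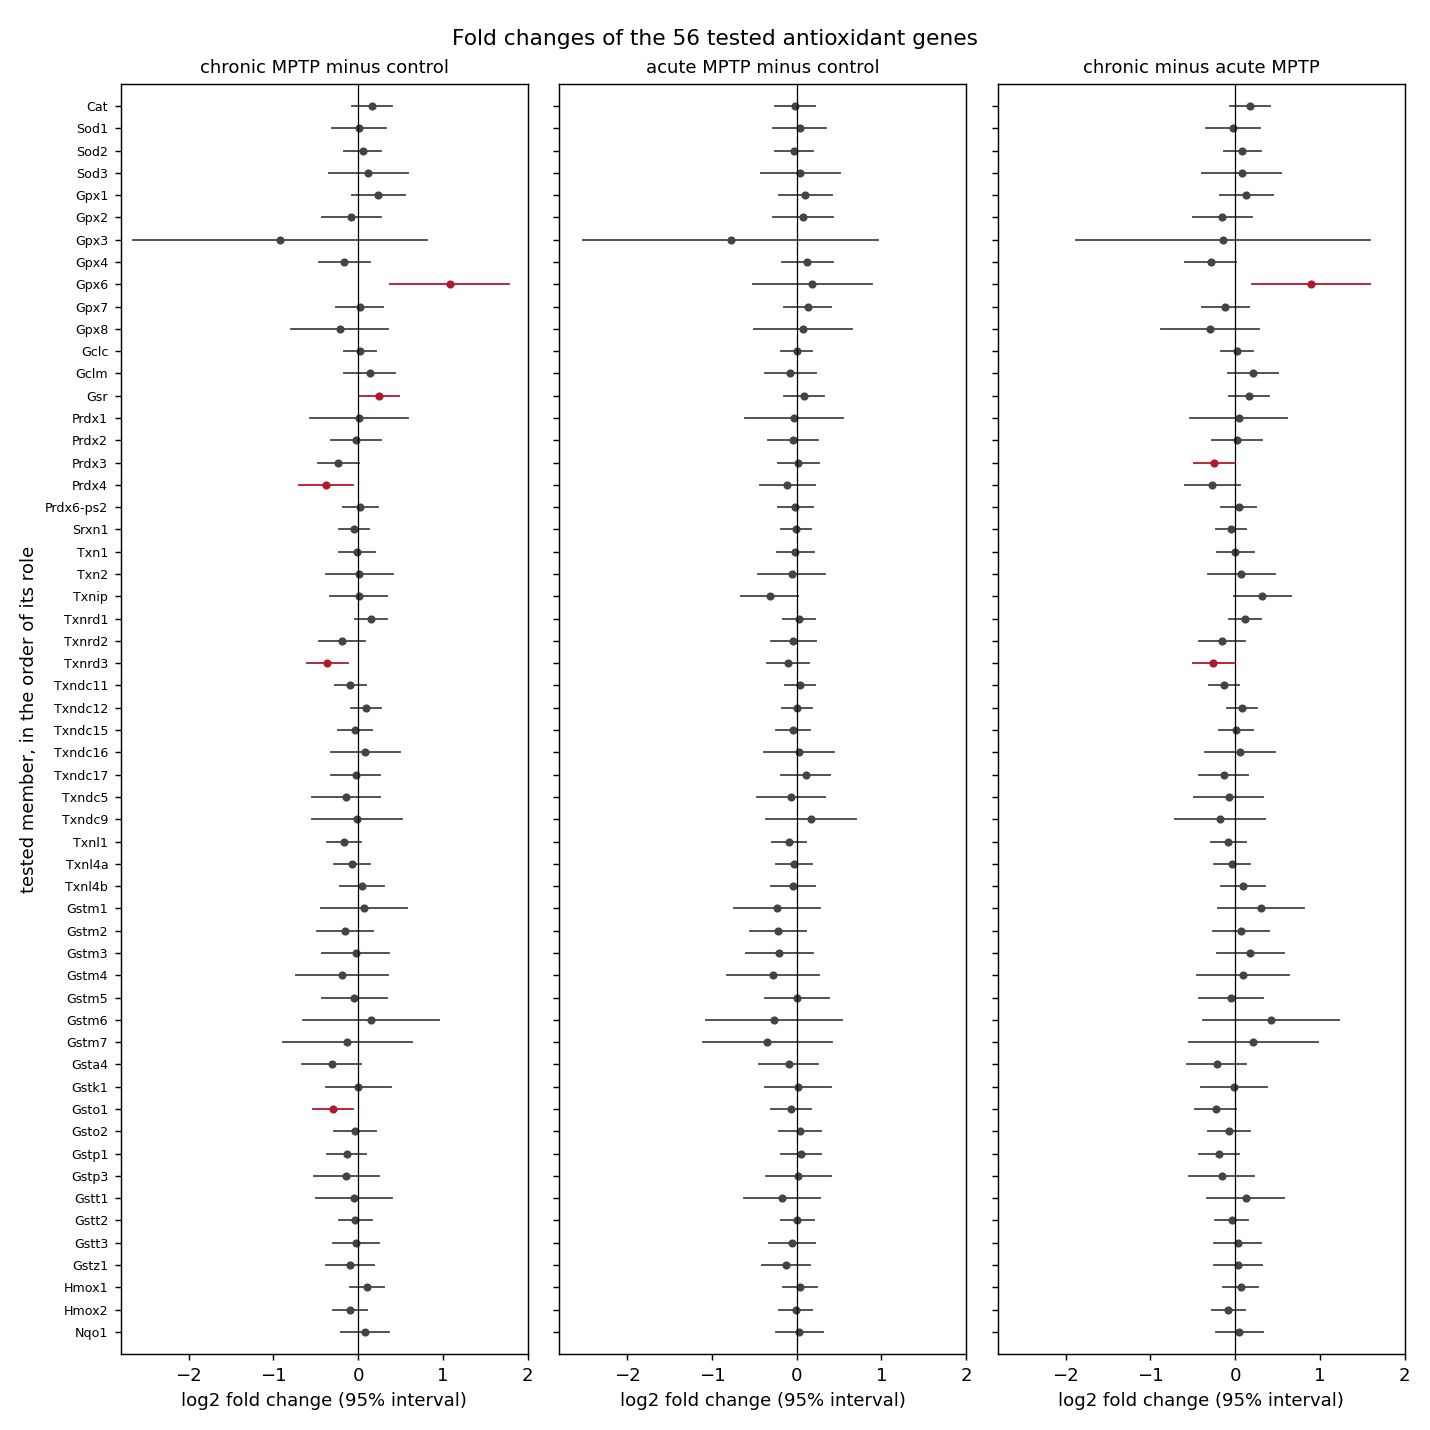
Log2 fold change with its 95% interval in limma for each of the 56 tested members, in 3 panels for chronic MPTP minus control, acute MPTP minus control and chronic minus acute MPTP. Red marks an unadjusted p under 0.05, which 5, 0 and 3 members had, and none passed after adjustment. Gpx6 lies farthest right for chronic MPTP minus control, and Gpx3 has the widest interval.

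Counts over the set were read against the background of all tested probe sets. For chronic MPTP against control 5 of 56 members had an unadjusted p under 0.05 (8.93%, against 5.51% of all tested probe sets). The 2 higher ones were Gpx6 and Gsr (2.85% of all were higher), and the 3 lower ones Gsto1, Prdx4 and Txnrd3 (2.66% of all). The groups did not overlap for 7 members (12.5%, against 6.55% of all). Of these, Gpx6, Gsr and Txnrd1 were higher (2.88% of all) and Gsta4, Gsto1, Txnl1 and Txnrd3 lower (3.67% of all). With the replicate block the count was 7, against 13% of all tested probe sets. The count of 5 was 8 without chronic 1, 3 without control 3, 2 without chronic 3 and 0 with the tissue covariates. Shares over all tested probe sets were not computed for these last fits. Whether the members or the whole array moved is therefore not shown.

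For acute MPTP against control 0 of 56 had an unadjusted p under 0.05, against 0.851% of all tested probe sets (0.416% higher and 0.435% lower). The groups did not overlap for 1 member, Txnip, or 1.79%, against 3.56% of all (2.06% higher and 1.49% lower). When the replicate number was added as a block, 2 members, Gstm2 and Gstm4, had an unadjusted p under 0.05, against 4.21% of all. The count was also 2 without control 1 and 1 without acute 3, fits for which the share over all tested probe sets was not computed.

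For chronic against acute MPTP, which also tests whether the 2 regimens differ from control by unlike amounts, 3 of 56 had an unadjusted p under 0.05 (5.36%, against 5.12%). These were Gpx6, higher (2.36% of all), and Prdx3 and Txnrd3, lower (2.76% of all). The groups did not overlap for 9 members (16.1%, against 8.63%), with Gpx6, Gsr and Txndc12 higher (3.61% of all) and Gpx4, Gsto1, Gstp1, Prdx3, Prdx4 and Txnrd3 lower (5.01% of all). With the replicate block the count of 3 became 8, against 13.9% of all tested probe sets. It was 5 without chronic 1, 1 without chronic 3, acute 1, acute 2 or control 1, and 0 with the tissue covariates. Here too the shares over all tested probe sets were not computed.

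Genes around the set were read from 6 lists with 92 tested genes, and no gene of them passed the test (smallest adjusted p 0.898 for chronic MPTP against control, 1 for acute MPTP against control and 0.877 for chronic against acute MPTP, in limma). Unadjusted p was under 0.05 for 5 of 92 in chronic MPTP against control (5.43%, against 5.51% of all tested probe sets), 1 in acute MPTP against control (1.09%, against 0.851%) and 6 in chronic against acute MPTP (6.52%, against 5.12%), shares near the background. Of 15 genes of glutathione supply and turnover, 6 had higher and 9 lower chronic than control means, with -0.17 ± 0.11 for Gss, glutathione synthetase. Ggt7, a member of the gamma-glutamyltransferase family, was at -1.27 ± 0.44 in chronic against acute MPTP (unadjusted p = 0.018). Among 15 other glutathione-linked enzymes, Mgst3, a microsomal transferase, was at -0.48 ± 0.19 in chronic MPTP against control (unadjusted p = 0.033).

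None of 19 genes of the NRF2 system had an unadjusted p under 0.05 in any comparison. Nfe2l2, which encodes NRF2, was 0.35 ± 0.17 higher in chronic than in acute MPTP (unadjusted p = 0.075), and Keap1, its repressor, was 0.11 ± 0.08 higher in acute MPTP than in control. Of 13 genes of NADPH supply, Me1, the cytosolic malic enzyme, was at -0.40 ± 0.16 in chronic MPTP against control (unadjusted p = 0.033). Among 18 genes of protein repair, metal binding and other defences, Park7, a redox-sensitive protein whose loss in humans causes inherited parkinsonism, was at -0.38 ± 0.14, Oxr1 at -0.60 ± 0.24 and Ccs, the copper chaperone of Sod1, at -0.27 ± 0.11 in the same comparison. Of 12 producers of superoxide and peroxide, Xdh, xanthine dehydrogenase, was at -0.25 ± 0.10 in acute MPTP against control (unadjusted p = 0.036) and 0.33 ± 0.10 in chronic against acute MPTP (unadjusted p = 0.010).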

How the data were processed

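Total RNA of striatum was hybridised to 9 single-colour Affymetrix arrays, 3 per group, and grouped by the titles in the labels. Per probe set, the authors deposited 1 log2 intensity per array, a scale read from the values, which reach between 14.07 and 14.43. Background correction, normalization and summary are not given in the sources used here, and the values were used as deposited.

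Of 28815 probe sets, 21780 had 1 gene symbol, 1605 several and 5430 none in the platform annotation. All 61 member identifiers were found in the RefSeq table of GRCm38.p6, which changed 0 symbols. The test covered the 16335 probe sets with 1 symbol whose mean was not below the 25th percentile (log2 5.89). A mean per group was fitted to all 9 arrays in limma 3.58.1 (R 4.3.3), with 6 residual degrees of freedom, two-sided tests and Benjamini-Hochberg adjustment over all tested probe sets (threshold 0.05). The code was tested on simulated data. No outlier check was made, since groups had 3 arrays.

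Replicate numbers were checked for pairing. Deviations from the group means correlated in all 9 same-numbered pairs (r from 0.16 to 0.67, across probe sets). In the 18 other pairs r lay between -0.61 and 0.18, so the ranges overlap slightly. Deviations cancel within a group, so these correlations are not independent. The numbers may therefore pair the samples, which the labels do not state. Unless the replicate block is named, p-values, standard errors and intervals ignore this pairing. With the replicate block, 13% of all tested probe sets had an unadjusted p under 0.05 in chronic MPTP against control, beside 5.51% without it.

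The members and lists were chosen with earlier results of these data known. Genes named with tests were, per comparison and direction, the 4 members of smallest unadjusted p, and per list up to 2 genes. Ccs in chronic MPTP against control, Gpx3, Gpx8, Gstm1, Gstm6, Gstm7, Gsta4 and other members outside this rule are described for their levels or spread, some of them chosen after their values were seen. Alternatives were a replicate block, 2-group fits, other filters, an intensity trend, array weights, quantile normalization, the mean of a gene's probe sets, tissue covariates and leaving out arrays. The last alternatives, without arrays high in the cortex gene Tbr1 (control 1, acute 1 and acute 2) and without arrays high in the choroid plexus gene Ttr (control 3 and acute 3), were chosen after seeing the data.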

Additional observations from a re-analysis of the deposited data

How the results depend on the processing

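The count of members passing the adjusted test was 0 under every alternative run, including the replicate block (smallest adjusted p 0.255 for chronic MPTP against control, 0.980 for acute MPTP against control and 0.288 for chronic against acute MPTP). The number with an unadjusted p under 0.05 moved. Outside the reported fit and the replicate block, the share over all tested probe sets was not computed. Counts from those other fits therefore do not show whether the members or the whole array moved. For chronic MPTP against control it was 5 in the reported fit, 7 with the replicate block (12.5% of members, against 13% of all tested probe sets), 3 with only the 2 groups compared, 2 with the filter at the median, 0 with tissue covariates, 1 without the cortex-rich arrays and 3 without those rich in choroid plexus genes. For acute MPTP against control it was 0 in the reported fit, 2 with the replicate block, 1 with array weights and 1 without the cortex-rich arrays. For chronic against acute MPTP it was 3 in the reported fit, 8 with the replicate block, 1 with the filter at the median, 0 with tissue covariates and 1 without the cortex-rich arrays. Leaving out 1 array at a time gave counts of 2 to 8 and medians of -0.073 to 0.021 for chronic MPTP against control, 0 to 2 and -0.043 to 0.00 for acute MPTP against control, and 1 to 5 and -0.026 to 0.050 for chronic against acute MPTP. The median without the cortex-rich arrays was -0.073 for chronic MPTP against control and -0.062 for chronic against acute MPTP, and the first was 0.021 without those rich in choroid plexus genes. The stricter filter tested fewer members, fits without arrays rest on fewer samples, and the tissue covariates leave fewer residual degrees of freedom. Otherwise the cause was not tested. Single differences that reversed were those of Gpx1 in chronic MPTP against control (-0.020 with tissue covariates), Gsr in acute MPTP against control (-0.018 without the arrays rich in choroid plexus genes, -0.013 to 0.14 leaving out 1 array), Gpx7 in that comparison (-0.021 to 0.22 leaving out 1 array), Gpx4 in that comparison (-0.040 without the cortex-rich arrays) and Gclm in chronic against acute MPTP (-0.011 without the same arrays). The other 469 values of single genes kept their direction and their side of the threshold.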

Other observations

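For 5 members a second probe set with the same single symbol was present. The Gpx4 pair gave like values, with -0.29 and -0.27 for chronic against acute MPTP. For Prdx2 in chronic MPTP against control the second probe set gave -0.21 and the reported one -0.02, and for Prdx1 in acute MPTP against control they gave -0.24 and -0.03. For Gstm3 the second probe set gave 0.16 for chronic MPTP against control beside -0.03, and -0.03 for acute MPTP against control beside -0.21. For Txndc9 it gave 0.13 for chronic MPTP against control beside -0.01.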
